A study of Mus musculus with 6 samples.

Results

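Macrophages of the carotid body were described through 10 marker genes: C1qa, C1qb, C1qc, Cd163, Mrc1, Cd68, Lyz2, Csf1r, Adgre1 and Fcgr1. They are 10 of 18194 genes named by the array. All probe sets whose platform annotation names 1 of them alone were taken, which gave 15 of the 34958 probe sets that name a single gene, on an array of 45101. The carotid body is a small organ beside the carotid artery that senses oxygen in the blood. Its RNA was compared between 2 inbred strains, A/J and DBA/2J, in untreated males of 28 days from Jackson Lab. Each of the 3 A/J arrays and 3 DBA/2J arrays held RNA pooled from 18 to 21 mice (36 to 42 carotid bodies), so the error below describes pools and not single animals.

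Macrophages are phagocytes that settle in most organs before birth and are renewed in part from blood monocytes. Their survival depends on the receptor Csf1r and its ligands, and the transcription factor PU.1, encoded by Spi1, drives much of their gene programme. They clear dying cells and debris by means of scavenger, complement and Fc receptors, digest them in lysosomes, and are the main source of complement C1q in many tissues.

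Log2 signals of arrays of 1 strain correlated at 0.939 to 0.964 over probe sets, and those of different strains at 0.925 to 0.946. The ratio of the 3' to the 5' Gapdh control probe set, which rises as 5' sequence is lost, ran from 1.73 to 4.87. It was highest on A/J array 2. The parts of RNA state and of the labelling steps in this ratio were not tested. DBA/2J array 3 stood apart from its label. Its Xist signal, from the RNA of the inactive X chromosome, was 3639, against 217.3 to 354.6 on the other 5 arrays. Its signals for the Y-linked Eif2s3y (2063) and Kdm5d (445.8) lay within the range of the others (1946.3 to 2155.2 and 345.3 to 560.8), and that for Uty (755.6) above it. A dimmer probe set of Kdm5d was lowest on this array (105.1, against 120.9 to 169). The dimmest probe set of Kdm5d, which did not pass the filter on dim probe sets, was highest on it (38.7, against 8.1 to 23.3). Th, Ddc, Slc18a1, Slc18a2 and Chga of the type I (glomus) cell were chosen to check the tissue label. Of 17 listed type I cell genes, 15 passed the filter on dim probe sets. So did 13006 of the 18194 genes named by the array and 18 of 19 listed skeletal muscle genes. Passing the filter therefore does not by itself tell the tissue, and the check left the label undecided. Because bulk RNA was measured, fewer macrophages and less RNA per macrophage cannot be told apart.

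The start regions of the marker genes are shown first, since PU.1 binds the ETS sequence AGGAAGT. RefSeq promoter entries (build GRCm38.p6) were at hand for 7 of the 10 genes. Within the 250 bases before the start site, AGGAAGT or its reverse complement ACTTCCT was found in 5 of the 7, against 7.69% of the 32851 promoter entries at hand. Each of the 5 held 1 match, given here in capitals with 27 bases on either side, 5′ to 3′ on the strand of the gene. The C1qb window is chr4:136886220-136886280 (minus strand), the C1qc window chr4:136893076-136893136 (minus), the Lyz2 window chr10:117282339-117282399 (minus), the Mrc1 window chr2:14229176-14229236 (plus) and the Fcgr1 window chr3:96293997-96294057 (minus).
C1qb: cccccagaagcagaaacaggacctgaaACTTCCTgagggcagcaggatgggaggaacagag
C1qc: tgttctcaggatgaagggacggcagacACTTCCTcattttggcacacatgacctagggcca
Lyz2: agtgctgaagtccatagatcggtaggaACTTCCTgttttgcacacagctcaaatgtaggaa
Mrc1: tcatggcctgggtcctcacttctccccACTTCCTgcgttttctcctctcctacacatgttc
Fcgr1: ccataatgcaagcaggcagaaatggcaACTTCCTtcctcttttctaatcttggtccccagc
All 5 matches ran opposite to the gene. They ended 47 bases before the start site in C1qb, 55 in Fcgr1, 94 in Lyz2, 189 in C1qc and 205 in Mrc1. The Cd163 and Cd68 windows held no match, and none of the 7 held TATAAA on the strand of the gene (7.59% of the 32851 entries do). A match is a description of the letters and not a site shown to be bound.

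All 10 markers passed the filter on dim probe sets. Of these, 9 had lower mean levels in the DBA/2J pools, by small amounts that did not pass the test. The log2 differences (DBA/2J minus A/J, on signal plus 16) ran from -0.60 for Cd68 to 0.01 for Fcgr1, with a median of -0.39. Across all 13006 genes tested the median was 0.03, and 47.0% had a difference below 0. With limma and Benjamini-Hochberg adjustment over 27022 probe sets, 0 of the 10 genes and 0 of the 15 probe sets were called at an adjusted p of 0.05, where 3.77% of genes and 3.27% of probe sets were (1.60% and 1.41% as lower). At an unadjusted p under 0.05, 3 of the 10 were lower (C1qb, Cd68 and Adgre1), against 7.83% of all genes.

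**Figure D1:**
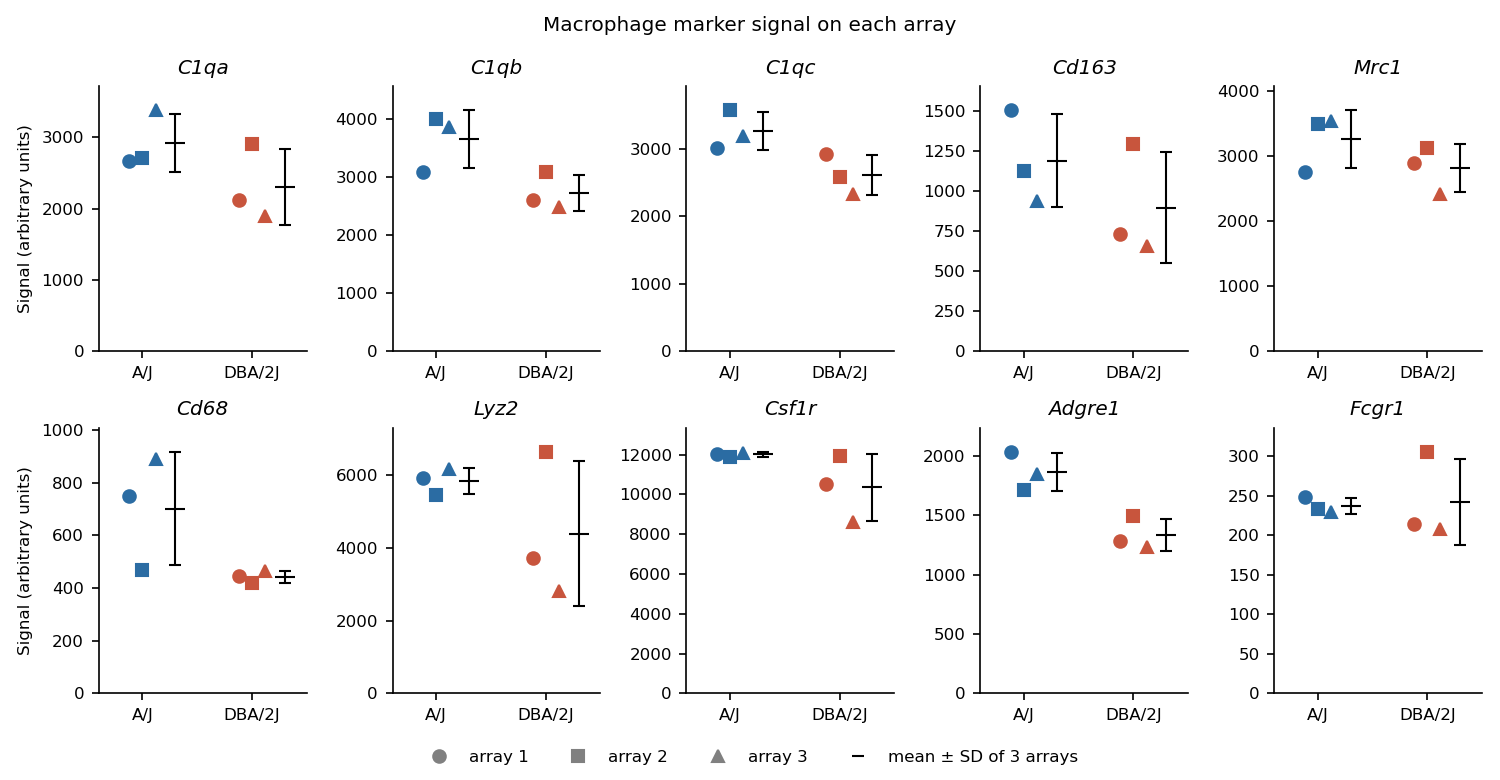
Signal (arbitrary units, linear axis from 0) of the probe set that stands for each of the 10 markers on each array, A/J in blue and DBA/2J in red, with the marker shape giving the array number and the bar the mean ± SD of 3 arrays. DBA/2J array 3 (triangle) is the lowest of the 6 arrays for 9 of the 10 genes, and DBA/2J array 2 (square) often lies among the A/J arrays.

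The chains of C1q, which recognises immune complexes and cell debris and starts the classical complement cascade, were measured with 5 probe sets. C1qb, C1qc and C1qa are neighbours on chromosome 4 in that order. C1qa had signals of 2671, 2711.8 and 3383.4 in A/J and 2119.2, 2903 and 1894 in DBA/2J. DBA/2J array 2 lay between the A/J arrays and the other DBA/2J arrays below them. Its log2 difference was -0.36 (SE 0.21, limma adjusted p = 0.491). C1qb had 3082, 4009.7 and 3873.3 in A/J and 2614.4, 3087.3 and 2486.5 in DBA/2J, where the strains overlapped by the margin between 3082 and 3087.3 (log2 difference -0.42, SE 0.18, adjusted p = 0.313).

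C1qb had further probe sets at -0.52 and -0.28. In the first of these, the DBA/2J arrays (770.1 to 1156.5) all lay below the A/J arrays (1263 to 1600.6). The second of these, and the probe set that stands for the gene, are of a class whose probes may also bind other transcripts. C1qc had 3021, 3575.2 and 3188.3 in A/J and 2919.5, 2590.9 and 2325.2 in DBA/2J. These did not overlap, yet the log2 difference of -0.32 (SE 0.17) did not pass (adjusted p = 0.433). The 3 chains thus differed by similar amounts, from -0.32 to -0.42, and the 95% intervals of their leading probe sets extended no lower than -0.83.

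The scavenger receptor Cd163, which takes up haemoglobin bound to haptoglobin, varied within each strain. It had 1507.6, 1126.2 and 940.8 in A/J and 735.7, 1294.3 and 659.8 in DBA/2J. DBA/2J array 2 was again inside the A/J range and the other DBA/2J arrays below it (log2 difference -0.44, SE 0.29, adjusted p = 0.55). Mrc1, the mannose receptor of tissue macrophages, had 2759.4, 3500.5 and 3546.4 in A/J and 2904.1, 3133.9 and 2423.8 in DBA/2J. The strains overlapped in 2 of the 3 DBA/2J arrays, and its log2 difference of -0.21 (SE 0.18, adjusted p = 0.680) was the second smallest in size of the 10.

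Cd68, a glycoprotein of the lysosomal and endosomal membrane, showed the largest mean difference of the 10 and also the widest spread, relative to its mean, among the A/J pools. It had 749.2, 468.4 and 888.7 in A/J and 447.5, 417.6 and 463.6 in DBA/2J. The strains did not overlap, but A/J array 2 (468.4) and DBA/2J array 3 (463.6) were nearly level. The log2 difference was -0.60 (SE 0.25, 95% interval -1.17 to -0.03, adjusted p = 0.291). A/J array 2 also had the highest Gapdh ratio (4.87) and the lowest summed signal of 18 skeletal muscle genes among the A/J arrays (56700, against 119168 and 140981). The part of either in the Cd68 values was not tested. With A/J array 2 as the only A/J array the Cd68 difference was -0.08, and without A/J array 2 it was -0.86.

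Cd68 was the sole marker to meet the rule stated by the series, which asks for 6 of 9 array pairs past 1.5-fold and a p under 0.05. It met it with 6 of 9 pairs and an unadjusted limma p of 0.0403, standing in for the p of the series. Of all genes, 10.1% met that rule and 4.66% did so with a lower level in DBA/2J, and of all probe sets 9.46% met it.

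Lyz2, the lysozyme of macrophages and neutrophils, was the marker in which the DBA/2J arrays differed most from each other, by fold. It had 5904.4, 5457.7 and 6158.4 in A/J and 3705.9, 6624.3 and 2812.3 in DBA/2J. DBA/2J array 2 was the highest of the 6 and the remaining DBA/2J arrays were the lowest (log2 difference -0.51, SE 0.28, adjusted p = 0.460). Without DBA/2J array 2 the difference was -0.85 and passed (limma adjusted p = 0.0344), in a fit that called 5% of all probe sets. The neighbouring Lyz1 is a close copy of Lyz2, and probe sets of either may read both. Its probe set with the highest mean ranged over 10448.3 to 14041 on the A/J arrays and 9009.8 to 12860.4 on the others (log2 difference -0.12, adjusted p = 0.832). The next gave 0.23.

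Csf1r, the receptor for the growth factors CSF1 and IL-34, was the steadiest marker among the A/J pools, relative to its mean. It had 12050.9, 11867 and 12088.4 in A/J and 10523.4, 11929.8 and 8587.8 in DBA/2J. DBA/2J array 2 lay inside the narrow A/J range. The log2 difference was -0.23 (SE 0.16, adjusted p = 0.578), and the other probe sets of the gene gave -0.10 and -0.0041, so the 3 did not share 1 size of difference. The 95% interval of the first reached from -0.58 to 0.13, which puts the lower bound at a level 1.50-fold lower in DBA/2J.

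Adgre1, the F4/80 antigen of mouse macrophages, had the smallest p of the 10. It had 2031, 1708.3 and 1850.4 in A/J and 1281.6, 1489.3 and 1230.6 in DBA/2J. All DBA/2J arrays lay below all A/J arrays, as in Cd68 and C1qc. Such separation with DBA/2J lower was seen in 9.69% of all genes and 9.54% of all probe sets. The log2 difference was -0.48 (SE 0.18, 95% interval -0.88 to -0.08, adjusted p = 0.226). With array weights, which gave DBA/2J array 1 a weight of 3.68 and DBA/2J array 2 a weight of 0.45, it passed at -0.52 (limma adjusted p = 0.0470). That fit called 11.1% of all probe sets.

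Fcgr1, the high-affinity IgG receptor CD64, was the dimmest of the 10 and did not share their direction. It had 248.8, 232.7 and 229.8 in A/J and 214.3, 305.1 and 207.8 in DBA/2J. DBA/2J array 2 was above and the other DBA/2J arrays below the A/J arrays. The log2 difference was 0.01 (SE 0.22, adjusted p = 0.989), and it turned to -0.0017 when all arrays were scaled to 1 median and to -0.09 with array weights. The other probe set of Fcgr1 had 263.5, 230.7 and 219.3 in A/J and 208.6, 274.4 and 132.2 in DBA/2J (log2 difference -0.25, adjusted p = 0.752). For scale, 15 control probe sets for transcripts of Bacillus subtilis, which the labels do not list among the added controls, had medians of 8.1 to 12.6 per array and a highest value of 71.8. As another gauge in labelled males, the brightest Xist probe set read 217.3 to 354.6 on the arrays other than DBA/2J array 3. That range overlaps the range of Fcgr1, while the other Xist probe sets read 4.0 to 74.7 there. How far Fcgr1 stood above background was not tested.

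**Figure D2:**
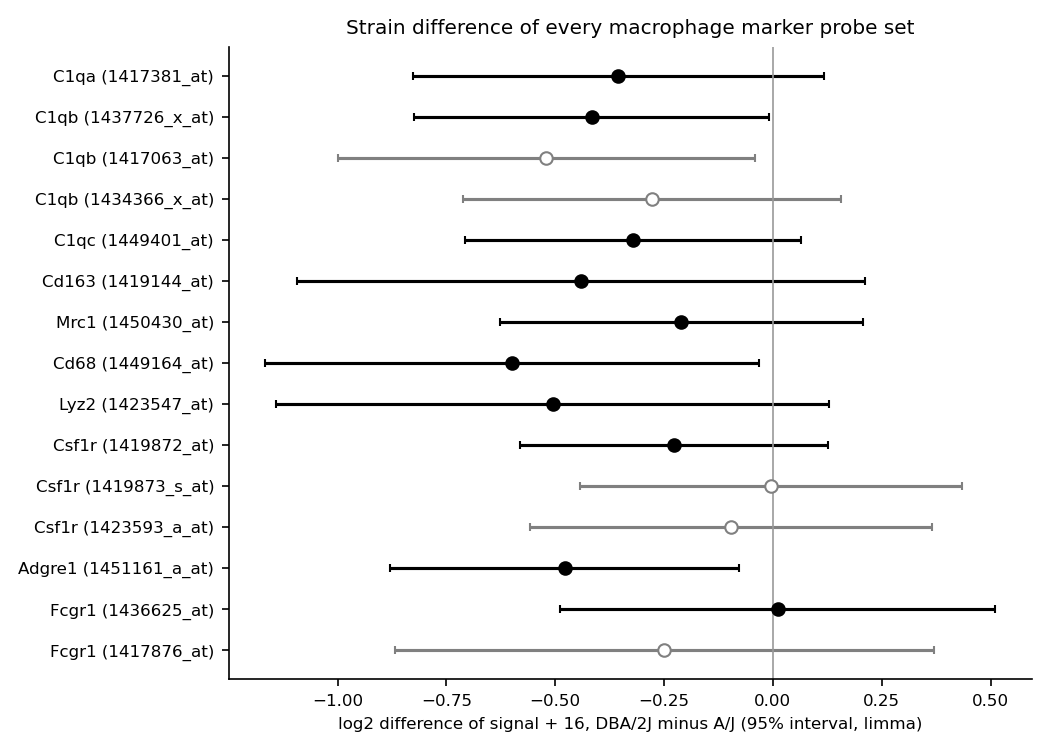
Log2 difference of signal plus 16 (DBA/2J minus A/J, horizontal axis) with its 95% interval from limma for all 15 probe sets; filled points stand for their gene and open grey points are its further probe sets. Only the intervals of 2 probe sets of C1qb and those of Cd68 and Adgre1 lie wholly below 0, and none of the 15 passed after adjustment.

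In the mean of the 10 markers, the DBA/2J pools differed from each other more than the A/J pools did. With each marker centred on its own mean log2 value, this mean was 0.18, 0.12 and 0.23 in the A/J pools. It was -0.22, 0.08 and -0.39 in the DBA/2J pools. By the SD of the signals, Cd68, C1qb, Mrc1 and Adgre1 varied more among the A/J pools, and the other markers more among the DBA/2J pools. On DBA/2J array 3, the one with the Xist signal, all 10 markers lay below all A/J arrays and 9 were the lowest of the 6, where 20.1% of all genes and 22.4% of all probe sets had their lowest value on that array. On DBA/2J array 1, 9 of the 10 lay below all A/J arrays. On DBA/2J array 2, 3 did, 5 were within the A/J range and 2 were above it. Of all genes, 28.7%, 25.2% and 30.7% lay below all A/J arrays on DBA/2J arrays 1, 2 and 3.

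The size of the shift therefore depended on which DBA/2J pools were included. Without DBA/2J array 3 the median over the 10 was -0.24, 9 of 10 were negative and 0 were called. In that fit the differences were -0.23 for C1qa, -0.35 for C1qb, -0.24 for C1qc, -0.26 for Cd163, -0.11 for Mrc1, -0.63 for Cd68, -0.23 for Lyz2, -0.10 for Csf1r, -0.42 for Adgre1 and 0.10 for Fcgr1. Without DBA/2J array 2 the median was -0.52 and all 10 were negative. Lyz2 alone was called, in a fit that called 5% of all probe sets. What sets these pools apart was not tested.

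Among genes that are not markers here, 5 had log2 profiles over the 6 arrays nearest to the mean profile of the 10, by root-mean-square difference after centring. They were Skap2 (0.04), Cib1 (0.05), Hadh (0.06), Ppp1r15b (0.06) and Selplg (0.06). Among the markers themselves this difference ran from 0.08 for Csf1r to 0.32 for Cd68. None of the 5 was called, their log2 differences lying between -0.36 and -0.28. Because they were chosen by nearness to that profile, differences of this size follow from the choice.

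In 11 lists of genes of macrophages and related blood cells, from the CSF1 axis to dendritic cells, 136 of 178 listed genes were tested, of which 8 were lower and 2 higher in DBA/2J (limma, adjusted p of 0.05; 3.77% of all genes were called, 1.60% as lower). Their median log2 difference was -0.15, against 0.03 over all genes. Without DBA/2J array 3 the count was 4 lower and 2 higher, with a median of -0.05. It was 3 lower and 1 higher without DBA/2J array 1, 3 lower and 2 higher without A/J array 1 or 3, and 4 lower and 2 higher without A/J array 2. Array weights gave 17 lower and 5 higher, in a fit that called 11.1% of all probe sets. Of the 10 called genes, Mgl2, Gpnmb, Ccl6 and H2-Ea were called without each array in turn. Retnla, Tlr4, Cfp and Cd209a were called in 1 of those 6 fits, the one without DBA/2J array 2, with adjusted p up to 0.103, 0.174, 0.201 and 0.128. Ccl9 was called in 3 (not without A/J array 1, A/J array 3 or DBA/2J array 1, highest adjusted p 0.0634) and Cxcl12 in 5 (adjusted p = 0.0519 without DBA/2J array 1).

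Among 25 tested surface genes of tissue macrophages, Mgl2 and Tlr4 were called lower and 0 higher (1.60% of all genes were called lower). Of the 25, 16 were negative and 9 positive. All DBA/2J arrays lay below all A/J arrays in 5 and above them in 3, against 1260 and 1688 of all 13006 genes. Mpeg1 was among those above (log2 difference 0.78, limma adjusted p = 0.161). Mgl2, the galactose-binding lectin CD301b, had 649.2, 780.9 and 594.6 in A/J and 123.5, 140.5 and 142.4 in DBA/2J (log2 difference -2.18, SE 0.20, adjusted p = 0.000687). The strains were far apart on every array. Tlr4, the receptor for lipopolysaccharide, had 1261.4, 1184.6 and 985.5 in A/J and 513.3, 652.4 and 596.6 in DBA/2J (log2 difference -0.94, adjusted p = 0.0349). Further kept probe sets of Tlr4 gave 0.22 and -0.34. Without DBA/2J array 3 Tlr4 was at -0.96 and did not pass (adjusted p = 0.0971).

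Of 17 tested chemokines and cytokines, Ccl6, Ccl9 and Retnla fell and Cxcl12 rose. Retnla, the resistin-like protein of alternatively activated macrophages, had 7405.6, 6196 and 4662.6 in A/J and 999.2, 2862.5 and 1151.6 in DBA/2J (log2 difference -1.99, adjusted p = 0.0209; -1.81 and adjusted p = 0.0761 without DBA/2J array 3). Ccl6 and Ccl9 are CC chemokines made by myeloid cells. Ccl6 had 2601.4, 2823.4 and 2368.2 in A/J and 1097.1, 979.2 and 1141.2 in DBA/2J (log2 difference -1.26, adjusted p = 0.00486). Ccl9 had 3564.1, 3435.4 and 3440.3 in A/J and 896.8, 1639.9 and 740.9 in DBA/2J (log2 difference -1.74, adjusted p = 0.0106). In each of these genes all DBA/2J arrays lay below all A/J arrays. Other probe sets gave -1.11 for Ccl6 and -0.78 for Ccl9, neither called. Cxcl12, a chemokine of stromal cells, rose from 4839.5 ± 780.4 to 10354.1 ± 327.0 (SD, n = 3; log2 difference 1.11).

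**Figure D3:**
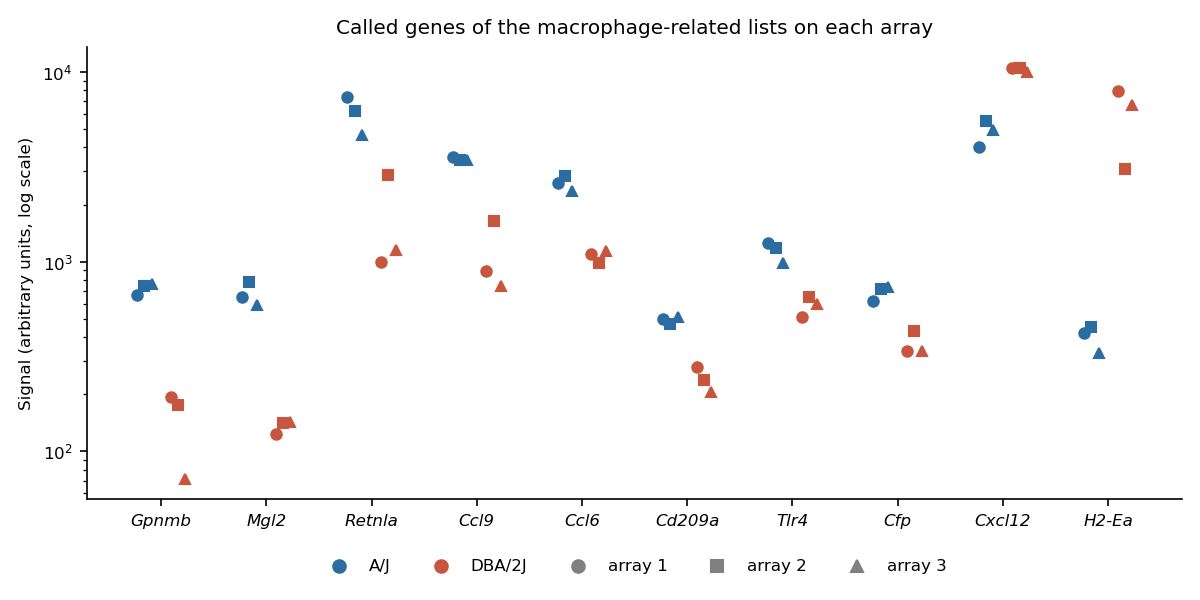
Signal (arbitrary units, log axis) on each array of the 10 called genes of the macrophage-related lists, ordered by log2 difference, A/J in blue and DBA/2J in red. In Mgl2 the A/J arrays sit between 594.6 and 780.9 and the DBA/2J arrays between 123.5 and 142.4; 8 genes are lower in DBA/2J, while Cxcl12 and H2-Ea are higher.

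Of 20 tested genes of the phagolysosome, Gpnmb fell and 0 rose. Gpnmb, a glycoprotein of macrophages and pigment cells, had 664.4, 749 and 763.1 in A/J and 193.3, 176.1 and 71.9 in DBA/2J (log2 difference -2.28, SE 0.32, adjusted p = 0.00575). All DBA/2J arrays were far below the A/J arrays. As background, the DBA/2J strain is known to carry a premature stop codon in Gpnmb. Of 11 tested complement genes other than C1q, Cfp, properdin of the alternative pathway, fell from 694.2 ± 63.3 to 369.1 ± 54.0 (log2 difference -0.89, adjusted p = 0.0457; another probe set at -0.20). It did not pass without DBA/2J array 3 (adjusted p = 0.137), with arrays scaled to 1 median (0.0527), with no filter on dim probe sets (0.0595) or with no intensity trend (0.0537). Of 8 tested dendritic cell genes, the lectin Cd209a fell from 493.0 ± 21.5 to 241.1 ± 37.0 (log2 difference -0.99, adjusted p = 0.0299; 0.0917 without DBA/2J array 3). Of 8 tested genes of MHC class II presentation, H2-Ea, the alpha chain of the E molecule, rose from 400.7 ± 64.1 to 5921.8 ± 2521.6 (log2 difference 3.74) and 0 fell, while Cd74, the invariant chain, was at 0.58 (adjusted p = 0.144).

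No gene was called in the remaining related lists. Over all related lists, 91 of the 136 tested genes were negative, and 72 were without DBA/2J array 3. Of all genes, 47.0% were negative with all arrays. Of 12 tested genes of the CSF1 axis and its transcription factors, 8 were negative, the one farthest from 0 being Cebpb at -0.81 (adjusted p = 0.498). In the same list Csf1 was at -0.17, Il34 at 0.23 and Spi1 at 0.01. Of 7 Fc receptors and adaptors 6 were negative, with Fcgr2b, the inhibitory IgG receptor, at -1.54 (adjusted p = 0.431). Of 15 pan-leukocyte genes 13 were negative, with Cd48 at -0.49 (adjusted p = 0.483) and Ptprc, the CD45 antigen of all leukocytes, at -0.07. Of 7 monocyte genes 6 were negative, with Hp at -1.16 (adjusted p = 0.188), and of 6 neutrophil genes 3 were, with Mmp9 at -0.40 (adjusted p = 0.545). In these 5 lists 2, 1, 0, 2 and 0 genes had an unadjusted limma p under 0.05 with a lower level, and 0, 1, 0, 0 and 0 with a higher one, against 7.83% and 9.30% of all genes.

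**Figure D4:**
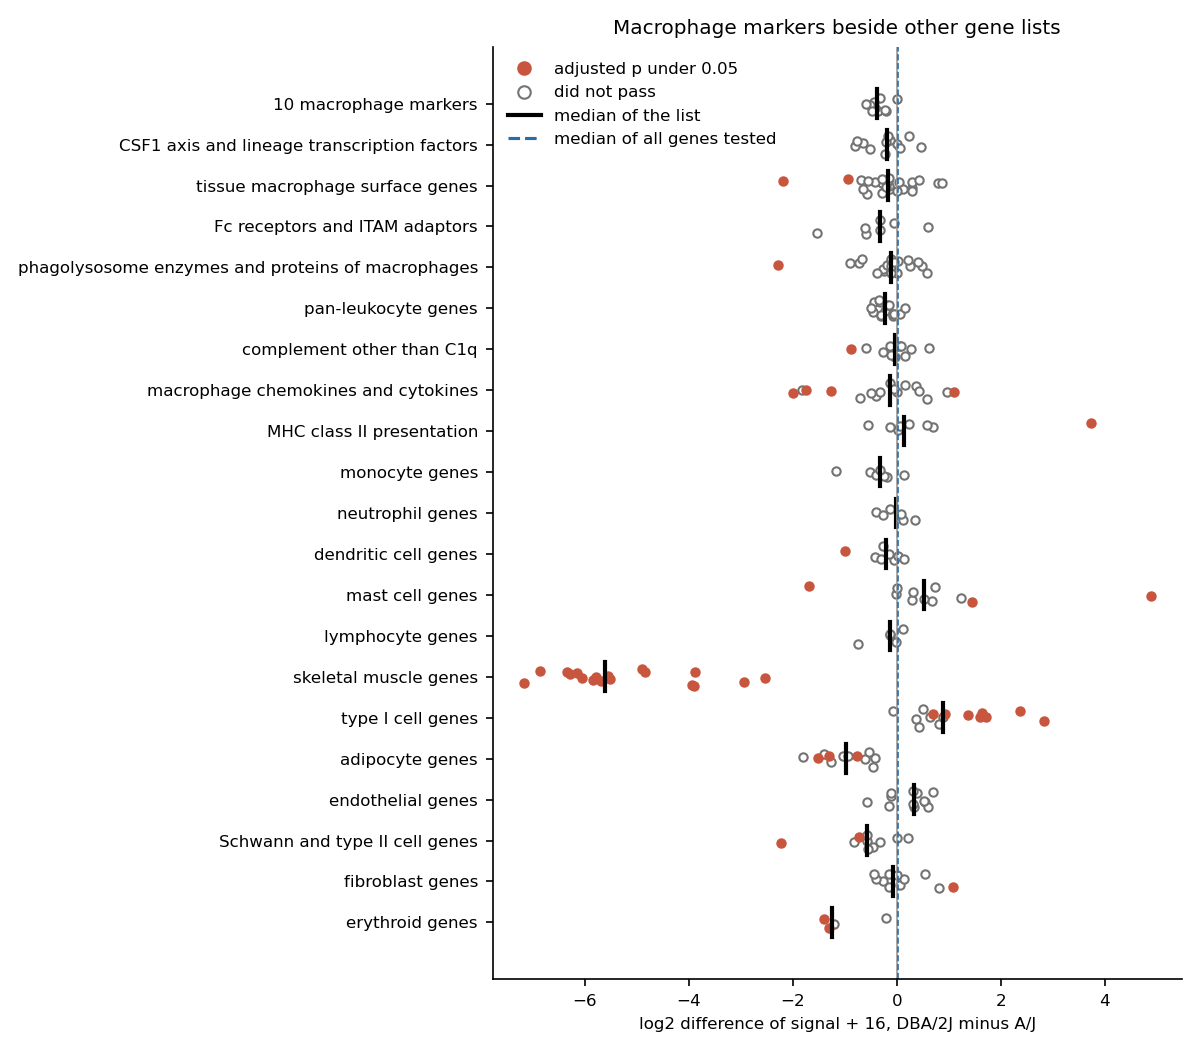
Log2 difference of signal plus 16 (DBA/2J minus A/J) of each tested gene in each list, red where limma called it, with the median of each list as a black bar and that of all genes as a dashed line. The 10 macrophage markers lie between -0.60 and 0.01 with no call, while skeletal muscle genes reach -7.17 and type I cell genes lie mostly above 0.

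Markers of some other cell types differed by larger amounts in the same pools. Median log2 differences were -5.62 for skeletal muscle, -0.99 for adipocyte, -0.56 for Schwann and type II cell and -1.25 for erythroid genes. The median of the 10 macrophage markers was -0.39, and those of endothelial (0.33), fibroblast (-0.07) and lymphocyte (-0.13) genes were smaller in size. The summed signal of the 10 macrophage markers was 34025 to 36148 in A/J, against 23091 to 33776 in DBA/2J. Skeletal muscle genes (18 of 18 tested lower, among them Ckm at -6.34 and Mylpf at -5.85) summed to 56700 to 140981 in A/J, against 2051 to 3778 in DBA/2J. Adipocyte genes (3 of 12 lower, among them Fabp4 at -0.77 and Gpd1 at -1.51) summed to 78327 to 110138 and 43095 to 63808. Schwann and type II cell genes (2 of 10 lower, Ugt8a at -2.22 and Scn7a at -0.74) summed to 39087 to 50386 and 27430 to 33776. Erythroid genes (2 of 4 lower, Alas2 at -1.40 and Hbb-b2 at -1.30) summed to 4941 to 5514 and 1651 to 2545. Of all genes tested, 1.60% were called lower.

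Other lists were higher in the DBA/2J pools or had few calls. Type I cell genes (8 of 15 higher, among them Scg2 at 1.71 and Chgb at 1.60) summed to 47875 to 52626 in A/J, against 88380 to 94078 in DBA/2J. Mast cell genes (2 of 11 higher, Mcpt2 at 4.88 and Cma1 at 1.44, and 1 lower) summed to 6203 to 6417 and 13063 to 19173. Fibroblast genes had 1 of 12 higher (Fbln2 at 1.09), and 0 of 12 endothelial and 0 of 5 lymphocyte genes were called. Of all 13006 genes tested, 282 were called higher and 208 lower. At an unadjusted limma p under 0.05, 4 endothelial genes were higher (9.30% of all genes were) and 1 lymphocyte gene was lower (7.83%). No tested gene of these lists was at or under a signal of 1 on any array. The part of these cell types in the macrophage values was not tested.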

How the data were processed

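RNA from pooled carotid bodies of 2 mouse strains was measured on 6 Affymetrix Mouse 430 2.0 arrays, labelled after repeated cDNA synthesis and transcription, per the labels' protocols. The deposited values are linear intensity signals from 0.1 to 27051.1, and each array's 2% trimmed mean is 500.0, so the authors had scaled them. The software was not given in the sources used here. Detection calls were not used. Gene names came from the platform annotation and were brought up to date with RefSeq (GRCm38.p6): 34958 probe sets name 1 gene, 932 several and 9211 none, and 34754 matched RefSeq.

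Values were taken as log2(signal + 16), 64 control probe sets were left out, and the upper 60% by mean were kept (27022). Strains were compared with limma 3.58.1 (R 4.3.3) and an intensity trend, two-sided, with Benjamini-Hochberg adjustment over all kept probe sets at 0.05. The kept probe set with the highest mean stood for a gene. Nothing in the labels says more of the pools than their numbers of mice and organs, and 3 arrays per strain limit the precision. On simulated data for this comparison (27022 probe sets, 200 changed), 26% of 2-fold and 96% of 4-fold changes were called, with 5 false among 127 calls.

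The markers, gene lists and tests were chosen with earlier results of these data known. Named genes are the 10 markers, called genes of 11 related lists (or the gene farthest from 0 where a list had fewer than 2 calls), up to 2 called genes of each other list, the 5 with the nearest profile, Xist as a check of sex, and Th, Ddc, Slc18a1, Slc18a2 and Chga as a check of the tissue. Cd74, Csf1, Il34, Spi1, Ptprc, Lyz1, Mpeg1 and the Y-linked genes were named after their values were seen. Alternatives were other normalizations, pseudocounts (1 and 64), filters, no trend, array weights, blocks and left-out arrays. Figures were drawn with matplotlib 3.10.9.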

Additional observations from a re-analysis of the deposited data

How the results depend on the processing

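Of the 10 markers, 9 kept a negative log2 difference in all 171 values computed for them under the alternatives. The 171 are not independent, since all fits reuse the same arrays. The other filters and the fit with no trend left the differences of these 9 unchanged. Fcgr1, at 0.01, turned to -0.0017 with arrays scaled to 1 median, -0.0855 with array weights, -0.12 with the mean of its probe sets, and between -0.1561 and 0.1043 over the fits that left out 1 array. The median over the 10 (-0.39) ran from -0.52 to -0.24 over those fits and stayed within the spread between arrays (SD 0.17) under the others. The count of called markers was 0 of 10 genes and 0 of 15 probe sets. With array weights it was 1 (Adgre1), in a fit that called 11.1% of all probe sets. By the rule of the series, which 10.1% of all genes met, it was 1 (Cd68). When arrays were left out it ran from 0 to 1. The 1 was Lyz2 without DBA/2J array 2, in a fit that called 5% of all probe sets. The causes were not tested. With the title number that pairs of arrays share taken as a fixed replicate block, the marker median was -0.38 and 0 probe sets were called of 27022, a fit that leaves 1 residual degree of freedom; as a random block the median was -0.38 and 848 were called. Arrays that share a title number had deviations correlated at -0.26 and 0.04, and arrays that do not at -0.26 to 0.20. So few pairs cannot decide whether the number pairs arrays, and the main fit did not use it. Without A/J arrays 1 and 3 the 1 remaining A/J array is assumed to vary like the DBA/2J arrays, and 63 probe sets were called in all, so that the 0 markers and 0 of the 10 related genes called there say little; Mgl2 (-2.40), Gpnmb (-2.33) and H2-Ea (3.56) were about as far from 0 as with all arrays. Without A/J array 2 and DBA/2J array 3, chosen after seeing the data, 0 markers and 4 of the 10 were. Dim probe sets could not be set against a detection call.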

Other observations

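Fcgr2b was measured with 4 kept probe sets, of which 3 were far lower on DBA/2J array 2 than elsewhere. The one that stands for the gene had 1925.9, 2891.5 and 984.4 in A/J and 1403, 116 and 1222 in DBA/2J. On DBA/2J array 2 the others read 623.3, 78.5 and 34.7, while on the remaining arrays they ran from 833.5 to 1683.3, 283.7 to 678.7 and 359.6 to 726.1. Fcgr1, Fcgr3 and Tyrobp were highest of the 6 arrays on that same array, with 305.1, 1815.3 and 2054.1. These genes were chosen after their values were seen.

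Cx3cr1, the fractalkine receptor of many resident macrophages, had 276.1, 509.2 and 447.7 in A/J and 985.6, 767.7 and 539.7 in DBA/2J. All DBA/2J arrays were above all A/J arrays, opposite to most of the markers, but the log2 difference of 0.87 did not pass (limma adjusted p = 0.181). Msr1, a scavenger receptor, had kept probe sets of opposite sign. That taken for the gene ranged over 175.9 to 211.9 on the A/J arrays and 237.8 to 250 on the others (log2 difference 0.29). The other ranged over 165.6 to 320.9 and 32.6 to 113.9 (log2 difference -1.92, limma adjusted p = 0.0412). Both genes were named after their values were seen.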
